A study of Homo sapiens with 4 samples.

Results

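The nuclear pore complex genes are described here in human liver cancer cells given a miR-4730 mimic or a negative control oligonucleotide. Members were chosen by symbol, with earlier results of these data known. They were every gene whose symbol starts with NUP and a digit, together with POM121, POM121C, NDC1, AAAS, SEH1L, SEC13, RAE1, TPR, RANBP2 and GLE1. The RefSeq gene table holds 33 protein-coding genes of this kind. Of these, 30 had a named probe set here, among 17687 named genes in all, and each had exactly 1 probe set. NUP62, NUP98 and NUP210L were not analysed here. All 30 were among the 12381 genes bright enough to be tested.

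The 4 groups were Li-7 cells with the mimic, Li-7 cells with the negative control, HEP-G2 cells with the mimic and HEP-G2 cells with the negative control, with 1 Affymetrix array each and no replicate array. Li-7 and HEP-G2 are established liver cancer lines. The mimic, a synthetic copy of the mature microRNA, was transfected with a lipid reagent at 3 nM, and the control was the same supplier's non-targeting oligonucleotide. Li-7 was grown in RPMI-1640 and HEP-G2 in DMEM, each with serum, so line and medium cannot be told apart.

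The nuclear pore complex is the channel through which proteins and RNA cross the nuclear envelope. Transmembrane nucleoporins anchor it in the pore membrane, outer and inner rings form its scaffold, and proteins rich in phenylalanine-glycine repeats fill the channel. Filaments on the cytoplasmic face finish mRNA export, and a basket on the nuclear side receives cargo. Proliferating cells build new pores both after division, when the envelope reforms, and during interphase. A microRNA guides Argonaute proteins to messenger RNAs through pairing of its seed, bases 2 to 8 from its 5′ end. The mature sequence is shown because it is what the treated cells received, with the seed in capitals (RefSeq, GRCh38.p14, chr17:80419427-80419449, plus strand).
hsa-miR-4730: cUGGCGGAgcccauuccaugcca

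POM121 and POM121C, near-identical copies of 1 transmembrane nucleoporin gene, are the members on which the results turn. The 250 bases before each annotated start are shown because they let the copies be compared where they begin. Capitals mark the bases that differ between them (GRCh38.p14, chr7:72879107-72879356, plus strand, for POM121, and chr7:75486300-75486549, minus strand, for POM121C).
POM121: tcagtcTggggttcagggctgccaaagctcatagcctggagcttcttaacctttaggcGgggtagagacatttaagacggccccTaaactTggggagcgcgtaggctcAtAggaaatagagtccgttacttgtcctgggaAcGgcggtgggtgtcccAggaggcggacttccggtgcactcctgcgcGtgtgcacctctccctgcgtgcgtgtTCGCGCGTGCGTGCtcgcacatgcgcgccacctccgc
POM121C: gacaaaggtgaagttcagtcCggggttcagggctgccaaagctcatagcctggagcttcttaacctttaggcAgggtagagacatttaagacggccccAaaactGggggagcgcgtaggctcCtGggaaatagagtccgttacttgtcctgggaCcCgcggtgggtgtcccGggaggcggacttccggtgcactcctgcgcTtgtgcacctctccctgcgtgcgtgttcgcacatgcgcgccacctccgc
Over the 236 aligned positions, 226 were identical and 10 differed, an identity of 95.76%, and POM121 held a stretch of 14 bases that POM121C lacked. POM121 has 2 annotated starts, and the window shown is the one that aligned better with that of POM121C. The identity is thus that of the more alike pair, and the other window is not shown.

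All values below are on the deposited log2-like scale. Its log base and normalization are unstated, so fold changes hold on that scale only. Array medians lay between 7.03 and 7.17. A mark of dim signal was set at the 95th percentile of 612 negative control probe sets and lay between 7.99 and 8.72. Of the 30 members, 27 lay above it on every array. On the HEP-G2 mimic array NUP107 and GLE1 lay under it, and NUP62CL lay under it on all 4. HMGA1, the gene the series names as target, fell with the mimic (mean log2 change -3.59, SE 0.29, limma's adjusted p = 0.0241). Of 8 liver markers, all lay above the mark on both HEP-G2 arrays and 0 lay above it on both Li-7 arrays. In Li-7 cells, albumin had log2 levels of 7.19 with the mimic and 7.30 with the control. Of the 8, SERPINA1 alone exceeded the mark in that line, on its mimic array. Of 10 markers of blood, endothelial and stromal cells, 9 lay under the mark on all arrays and CD68, a lysosomal protein of macrophages that many cell lines also express, lay above it on all.

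Among the transmembrane nucleoporins, the POM121 copies fell in both lines and the other members did not pass the test. POM121 links the pore scaffold to the pore membrane and takes part in the assembly of new pores. In Li-7 cells its log2 level was 9.69 with the mimic, against 12.25 with the control. In HEP-G2 cells its log2 level was 9.65 with the mimic, against 12.11 with the control. The mimic array was the lower one in each line, as for 31.0% of all genes, and the levels were almost the same in the lines. The log2 differences, mimic minus control, were -2.56 in Li-7 cells and -2.46 in HEP-G2 cells. Their mean over the 2 lines was -2.51 (limma's SE 0.24), or 5.69-fold lower. Every SE given here is limma's, which rests mostly on a variance pooled over all genes, not on the gene's own gap between lines. POM121 passed the limma test of mimic against control with cell line in the model (adjusted p = 0.0266). On RNA from whole cultures, fewer expressing cells and less RNA per cell cannot be told apart.

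POM121C followed the same course. Its log2 level in Li-7 cells was 11.10 with the mimic, against 13.30 with the control. Its log2 level in HEP-G2 cells was 11.06 with the mimic, against 13.30 with the control. Again the mimic array was the lower one in each line. The log2 differences were -2.20 in Li-7 cells and -2.24 in HEP-G2 cells, with a mean change of -2.22 (SE 0.24, 4.65-fold lower, limma's adjusted p = 0.0308). The 2 lines' differences lay 0.10 log2 units apart for POM121 and 0.04 for POM121C, against a median of 0.37 over all genes tested. Counted from the lowest log2 difference of 12381 genes, POM121 ranked 18 in Li-7 cells and 27 in HEP-G2 cells, and POM121C ranked 40 and 56 in the same order. Because the copies are near-identical, probes designed for one may detect the other, but probe and transcript sequences were not compared. How much of each value comes from which copy was not tested.

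NDC1 and NUP210, the remaining transmembrane members, did not pass. NDC1, which works with POM121 in anchoring the pore, had log2 levels of 13.47 with the mimic and 13.84 with the control in Li-7 cells. In HEP-G2 cells its log2 levels were 11.87 with the mimic and 13.23 with the control. The mimic array was the lower one in each line, and the HEP-G2 gap was the larger (mean log2 change -0.86, SE 0.31, limma's adjusted p = 0.202). NUP210, a glycoprotein of the pore membrane known for tissue-restricted expression, had log2 differences of 0.06 in Li-7 cells and 0.18 in HEP-G2 cells. It was the 1 member higher with the mimic in both lines, by less than its SE of 0.24.

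**Figure D1:**
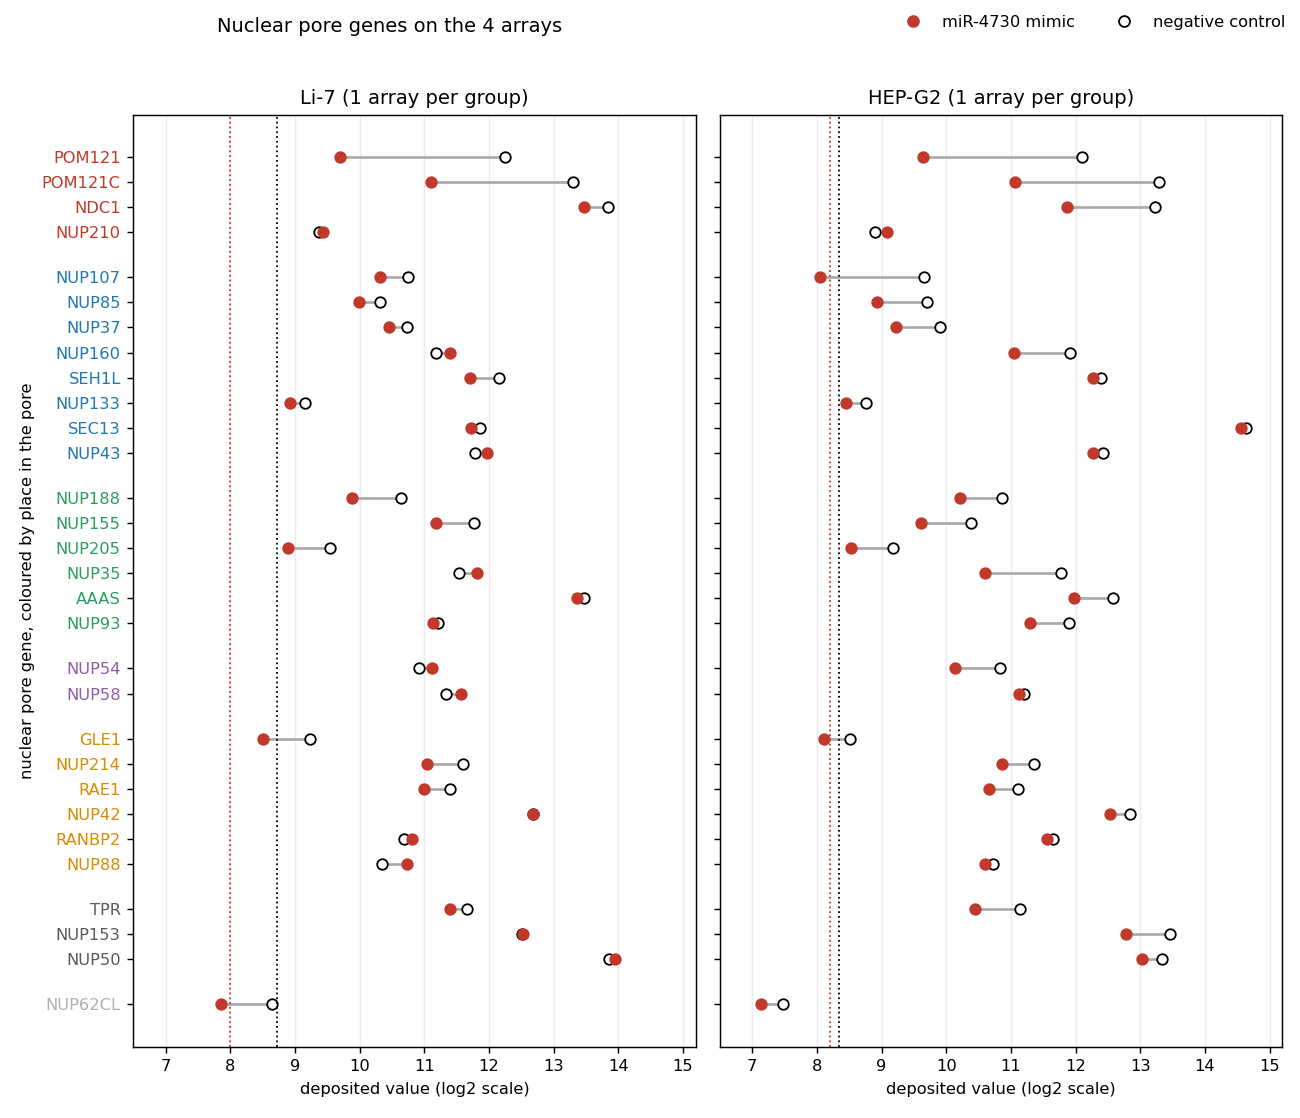
Deposited log2 levels of the 30 nuclear pore genes, with filled points for the miR-4730 mimic array, open points for the negative control array and dotted lines at each array's mark of dim signal (red for mimic, black for control). POM121 and POM121C show the widest gaps in both lines, and levels of different genes cannot be set against each other because their probes differ.

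Of the 30 members, 2 fell and 0 rose in the limma test over all genes at an adjusted p of 0.05. Over all 12381 genes, 0.339% passed as lower and 0.0808% as higher with the mimic. The 2 that fell were the POM121 copies, named in the choice of members after such results were known. Setting their count against all genes is therefore no support. Of the other 28 members, 0 passed. At an unadjusted p of 0.05, 7 members were lower and 0 higher, against 9.71% and 9.75% of all genes. With 1 array per group the test rests on the disagreement between the lines, not on replicate cultures. Each gene leaves 1 residual degree of freedom, and limma adds 5.85 from the disagreement pooled over all genes. The p values thus reflect that pooled spread more than how closely the lines agreed for a single gene. Both calls of the POM121 copies were lost with an unmoderated statistic or without a term for cell line. The loss was general, since 1 and 0 of all genes passed there.

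The other 28 members were mostly a little lower with the mimic. Their median mean log2 change was -0.35, against 0.03 over all genes tested, and it was -0.18 in Li-7 cells and -0.55 in HEP-G2 cells. The mean change minus that median was -2.16 log2 units for POM121 and -1.86 for POM121C. The SD of the mean changes among the 28 was 0.29. The copies were named in the choice of members after such results were known, so this gap is given without a test. In Li-7 cells the lowest log2 difference after the copies was that of NUP62CL, at -0.78, and in HEP-G2 cells it was that of NUP107, at -1.60.

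In HEP-G2 cells 29 of the 30 members had a lower value with the mimic than with the control, NUP210 being the exception, against 48.8% of all genes. In Li-7 cells 19 of 30 did, against 48.2% of all genes. After cyclic loess normalization the HEP-G2 count was 25, with no share of all genes taken there. Lower values in both lines were found for 19 members, or 63.3%, against 31.0% of all genes. After cyclic loess that count was 17, against 27.9% of all genes. Among genes above the negative controls on every array it was 16 of 27 members, against 36% of all genes kept there. Higher values in both lines were found for 1 member, NUP210, against 34.1% of all genes, and opposite signs for 10, or 33.3%, against 34.9%. The HEP-G2 difference was the lower one for 21 members, or 70.0%, against 51.6% of all genes. At least 2-fold lower in HEP-G2 were 5 members, POM121, POM121C, NUP107, NDC1 and NUP35, or 16.7%, against 6.28% of all genes. At least 2-fold lower in Li-7 were 2, the POM121 copies, against 4.12% of all genes. The copies were so in both lines, as were 1.76% of all genes. Since the copies were chosen with results known, these shares give no support. No member was 2-fold higher in either line, where 3.72% of all genes were so in Li-7 and 5.77% in HEP-G2. Whether the response differed between the lines could not be tested with single arrays.

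**Figure D2:**
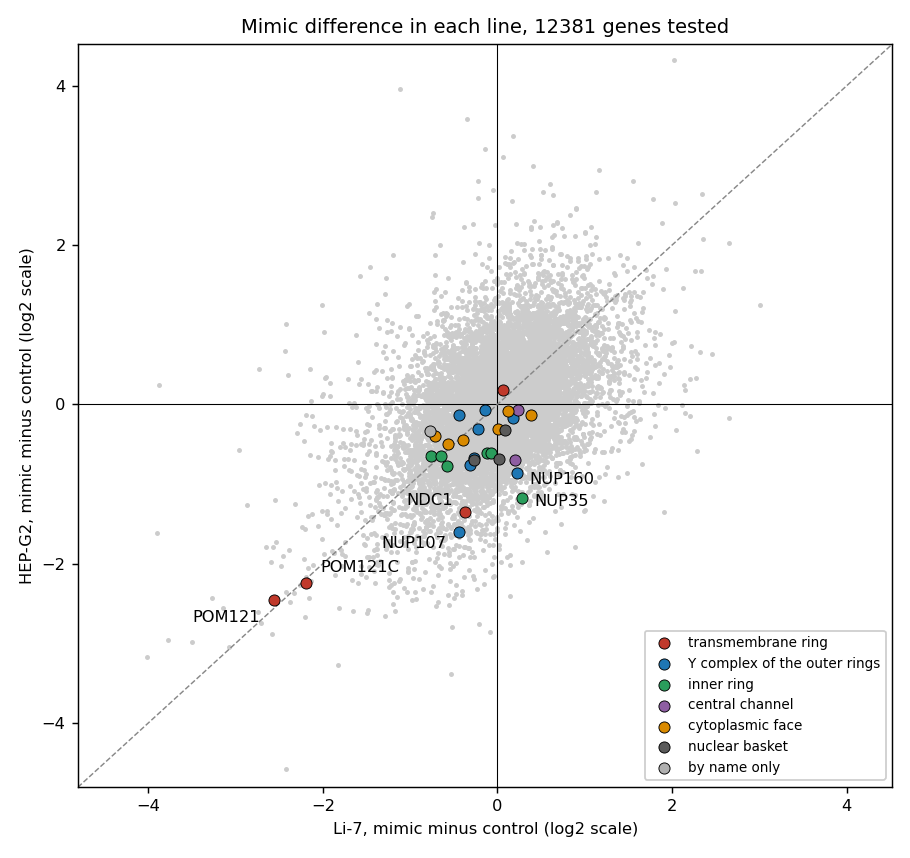
Log2 difference, mimic minus control, in Li-7 (x axis) and HEP-G2 (y axis) for the 12381 genes tested (grey) and the 30 pore genes (coloured by place in the pore), with a dashed line where both lines are equal. POM121 and POM121C lie close to that line at about -2.5 and -2.2, while NUP107, NDC1, NUP35 and NUP160 lie below it.

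None of the 8 genes of the symbol rule that were placed in the Y complex, the scaffold unit of the outer rings, passed the test. Their median mean log2 change was -0.30, and 7 had a negative mean, as did 47.4% of all genes tested. NUP107, a stem subunit that the complex needs for stability, had log2 levels of 10.31 with the mimic and 10.75 with the control in Li-7 cells. In HEP-G2 cells it had 8.05 with the mimic and 9.65 with the control on that log2 scale. Its mean log2 change of -1.02 (SE 0.33, limma's adjusted p = 0.173) was the lowest among the members other than the copies, and its HEP-G2 mimic level lay in the dim range. NUP85, which sits in an arm of the complex, had log2 differences of -0.32 in Li-7 cells and -0.77 in HEP-G2 cells. NUP37, a propeller subunit, had -0.27 in Li-7 cells and -0.67 in HEP-G2 cells on the log2 scale. NUP160, a subunit of the other arm, differed in sign between the lines, with log2 differences of 0.22 in Li-7 cells and -0.86 in HEP-G2 cells. NUP133, which tethers the complex at its stem, had log2 differences of -0.22 and -0.31 in Li-7 and HEP-G2. SEH1L and SEC13 also serve outside the pore, in nutrient sensing upstream of mTORC1 and, for SEC13, in the coat of vesicles leaving the endoplasmic reticulum. SEH1L had log2 differences of -0.44 in Li-7 cells and -0.13 in HEP-G2 cells, and SEC13 had -0.15 and -0.07. NUP43, another propeller subunit, had a mean log2 change of 0.01, with values on either side of 0 in the lines.

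All 6 inner ring members had negative mean log2 changes, between -0.71 and -0.34, as did 47.4% of all genes tested for sign alone. Of the 6, 0 passed the test. NUP188 and NUP205 are large, related scaffold proteins that bind NUP93. NUP188 had log2 levels in Li-7 cells of 9.88 with the mimic and 10.64 with the control. In HEP-G2 cells NUP188 had log2 levels of 10.21 with the mimic and 10.86 with the control. NUP205 had log2 levels of 8.88 with the mimic and 9.53 with the control in Li-7 cells, and of 8.53 with the mimic and 9.18 with the control in HEP-G2 cells. Both genes were lower with the mimic in each line by nearly equal amounts, with log2 differences of -0.76 and -0.65 for NUP188 and of -0.65 and -0.64 for NUP205 in Li-7 and HEP-G2. NUP155, which joins the inner ring to the pore membrane, had log2 differences of -0.58 in Li-7 cells and -0.77 in HEP-G2 cells (limma's adjusted p = 0.206). The adjusted p values were 0.191 for NUP188 and 0.218 for NUP205 in the same limma fit.

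The other inner ring members differed more between the lines. NUP35, a membrane-binding linker that contacts NUP155 and NUP93, had log2 levels of 11.81 with the mimic and 11.53 with the control in Li-7 cells. In HEP-G2 cells NUP35 had log2 levels of 10.59 with the mimic and 11.77 with the control. The direction was thus opposite in the lines, and its gap of 1.46 log2 units between the lines' differences was the widest of all members. NUP93, the linker that holds the ring together, had log2 differences of -0.07 in Li-7 cells and -0.61 in HEP-G2 cells. AAAS, the protein mutated in triple A syndrome and held at the pore by NDC1, had log2 differences of -0.12 in Li-7 cells and -0.61 in HEP-G2 cells.

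The central channel was represented by NUP54 and NUP58, repeat proteins that act in a complex with NUP62. NUP54 had log2 differences of 0.20 in Li-7 cells and -0.70 in HEP-G2 cells, and NUP58 had 0.23 in Li-7 cells and -0.07 in HEP-G2 cells. Each was thus higher with the mimic in Li-7 and lower in HEP-G2, and neither passed the test.

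On the cytoplasmic face, 3 of 6 members had lower values with the mimic in each line, as did 31.0% of all genes, and 0 passed. GLE1, which activates the helicase that strips export factors from mRNA, had log2 differences of -0.72 in Li-7 cells and -0.40 in HEP-G2 cells (limma's adjusted p = 0.280). NUP214, a repeat protein that binds the export receptor XPO1 and is known from leukaemia fusions, had -0.56 in Li-7 cells and -0.50 in HEP-G2 cells on the log2 scale. RAE1, an mRNA export factor that partners NUP98, had log2 differences of -0.40 in Li-7 cells and -0.44 in HEP-G2 cells. NUP214 and RAE1 had nearly equal differences in the lines, and GLE1 had the larger one in Li-7. NUP42, which binds GLE1, stood at log2 differences of 0.01 in Li-7 cells and -0.31 in HEP-G2 cells. RANBP2, the largest filament protein, which binds Ran and holds RANGAP1 at the pore, had log2 differences of 0.12 and -0.08 in Li-7 and HEP-G2. NUP88, the partner of NUP214, had 0.38 in Li-7, the highest log2 difference of any member there, and -0.13 in HEP-G2.

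The 3 basket proteins had their larger differences in HEP-G2. TPR, which forms the basket filaments, had log2 differences of -0.27 in Li-7 cells and -0.70 in HEP-G2 cells. NUP153, which anchors the basket and binds lamins and importins, had log2 levels of 12.52 with the mimic and 12.51 with the control in Li-7 cells. In HEP-G2 cells NUP153 had log2 levels of 12.78 with the mimic and 13.46 with the control. NUP50, a mobile basket protein that helps release import cargo, had log2 differences of 0.09 in Li-7 cells and -0.32 in HEP-G2 cells. None of the 3 passed the test (limma's lowest adjusted p = 0.354, for TPR). NUP62CL, a member by its name rather than by a known place in the pore, had log2 differences of -0.78 in Li-7 cells and -0.33 in HEP-G2 cells, all from dim values.

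**Figure D3:**
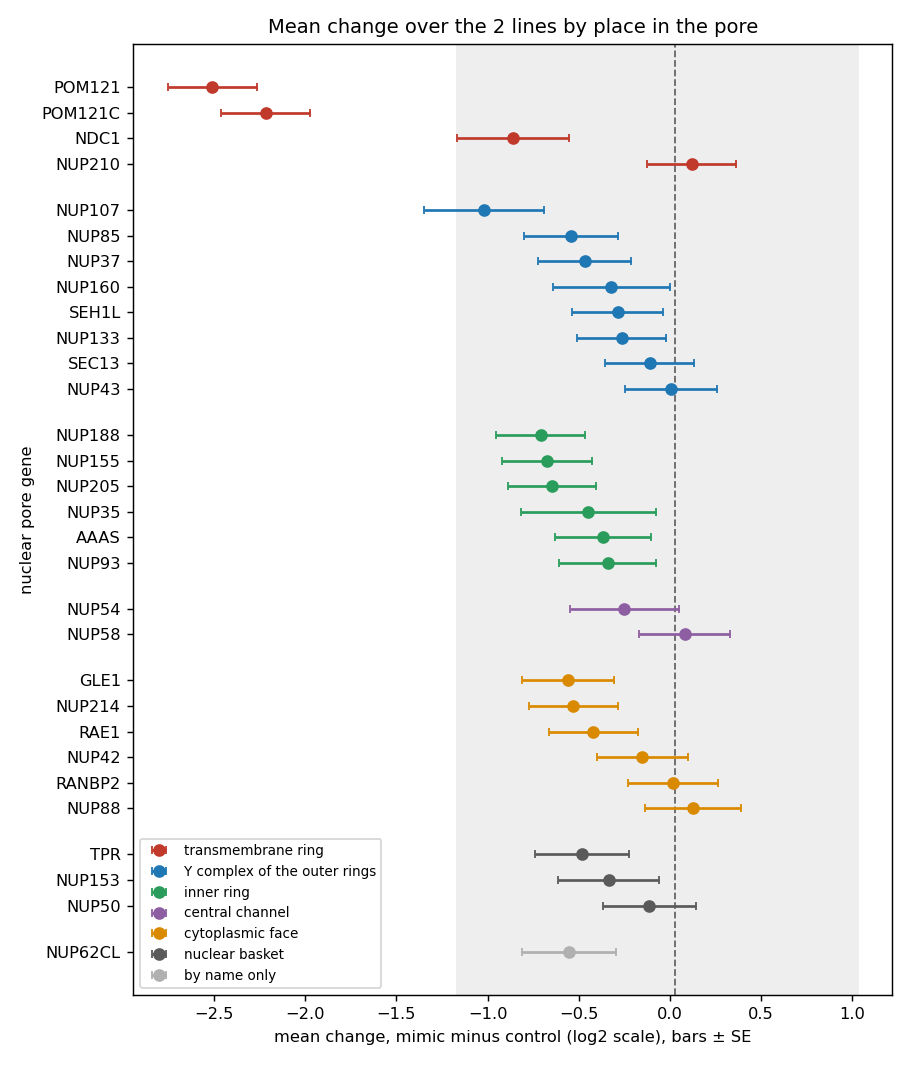
Mean log2 change over the 2 lines, mimic minus control, of the 30 pore genes, coloured by place in the pore. Bars show 1 SE from limma, which rests mostly on a variance pooled over all genes. The grey band holds the central 95% of all genes tested, and the dashed line is at their median. POM121 and POM121C alone lie outside the band, which runs from -1.17 to 1.03.

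The same probe sets were compared between the lines, as Li-7 minus HEP-G2 over both treatments. The POM121 copies did not pass, with log2 differences of 0.09 for POM121 (SE 0.24) and 0.02 for POM121C (SE 0.24). Of the 30 members, 7 were higher in Li-7 past an adjusted p of 0.05 (23.3%, against 24.3% of all genes) and 2 were lower there (6.67%, against 20.7%). The 7 were NUP107, NUP155, AAAS, NDC1, NUP37, NUP62CL and NUP85. All values of NUP62CL and the HEP-G2 mimic value of NUP107 lay under the dim-signal mark. Their log2 differences ran from 0.84 for NUP85 (limma's adjusted p = 0.0353) to 1.68 for NUP107 (limma's adjusted p = 0.00581). These line differences average over the mimic and control arrays, so the HEP-G2 mimic values enter them.
SEC13 and RANBP2 were the members lower in Li-7. SEC13 had log2 levels of 11.72 with the mimic and 11.87 with the control in Li-7 cells, against 14.56 with the mimic and 14.64 with the control in HEP-G2 cells. Its log2 line difference of -2.81 (SE 0.24) was the widest of all members. RANBP2 had a log2 line difference of -0.86 (SE 0.25, limma's adjusted p = 0.0272).

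The genes that lie beside the POM121 copies were read for comparison, as the 5 nearest genes with a probe set on each side of each copy. The region is duplicated, and several neighbours are themselves members of copied families. Of these 20 genes 15 were bright enough to be tested, and 0 passed the test (limma's lowest adjusted p = 0.0766). Their median mean log2 change was -0.17. Beside RCC1L, the neighbours furthest from 0 were TRIM74 (mean log2 change 0.70), NSUN5 (-0.47) and PMS2P3 (-0.47). Several neighbours come as copies that lie beside either POM121 gene. STAG3L3 had log2 differences of -0.24 in Li-7 cells and -0.06 in HEP-G2 cells, and its copy STAG3L1 had -0.02 and -0.17. NSUN5P2 had log2 differences of 0.11 in Li-7 cells and 0.30 in HEP-G2 cells, and its copy NSUN5P1 had 0.24 and -0.34. NSUN5P1 exceeded the dim-signal mark on the Li-7 mimic array only. TRIM74 had log2 differences of -0.14 in Li-7 cells and 1.55 in HEP-G2 cells, and its copy TRIM73 had -0.66 and 0.26, with all values of both under the dim-signal mark. NSUN5, the related gene of the NSUN5P copies, had log2 differences of 0.24 in Li-7 cells and -1.19 in HEP-G2 cells. RCC1L, which encodes a mitochondrial protein, was the neighbour with the lowest mean change. Its log2 level in Li-7 cells was 8.75 with the mimic, against 10.11 with the control, and in HEP-G2 cells 9.30 with the mimic, against 10.53 with the control. It had the lower value with the mimic in each line (mean log2 change -1.29, SE 0.24, limma's adjusted p = 0.0766). POM121L12 and POM121L2, more distant relatives of POM121, lay under the dim-signal mark on all arrays.

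The transport machinery that uses the pore was described over lists of its genes. Of 29 tested transport receptors and Ran cycle genes, 1 fell and 0 rose, against 0.339% and 0.0808% of all genes, with a median mean log2 change of -0.32. The gene that fell was RANGAP1, the activator of Ran's GTPase, which is tethered to the cytoplasmic filaments by RANBP2. RANGAP1 had log2 levels of 8.42 with the mimic and 10.82 with the control in Li-7 cells. In HEP-G2 cells RANGAP1 had log2 levels of 7.54 with the mimic and 9.36 with the control. The mimic array was the lower one in each line, and the HEP-G2 mimic level lay in the dim range (mean log2 change -2.11, SE 0.27, limma's adjusted p = 0.0412). RANBP3, a cofactor of export, and XPO7, an exportin, stood at mean log2 changes of -1.48 and -1.31 without passing (limma's adjusted p = 0.0617 and 0.0804). KPNA5, an importin alpha, stood at 1.30 on the log2 scale, also without passing (limma's adjusted p = 0.0766). Its Li-7 control level, 8.37, lay in the dim range.

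Among 17 tested mRNA export genes 0 passed, 15 had a negative mean, as did 47.4% of all genes, and the median mean log2 change was -0.33. The members furthest from 0 were DDX39A, an export helicase (-0.75), THOC3 (-0.65), POLDIP3 (-0.62) and ALYREF (-0.62), the last 3 being subunits or partners of the TREX export complex. Among 22 tested genes of the nuclear envelope and of pore assembly 0 passed, and the median mean log2 change was -0.01. TMPO and LMNB1, both of the nuclear lamina, had log2 differences of -0.48 and -0.38 in Li-7 and of -1.76 and -1.79 in HEP-G2. They thus had the larger differences in HEP-G2, where NUP107, NDC1 and NUP35 had theirs. TOR1AIP2, an activator of torsins, and SYNE1, a nesprin, stood at mean log2 changes of 1.06 and 1.00, on the other side of 0 (limma's adjusted p = 0.163 and 0.118). SYNE1 lay under the dim-signal mark on all 4 arrays.

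**Figure D4:**
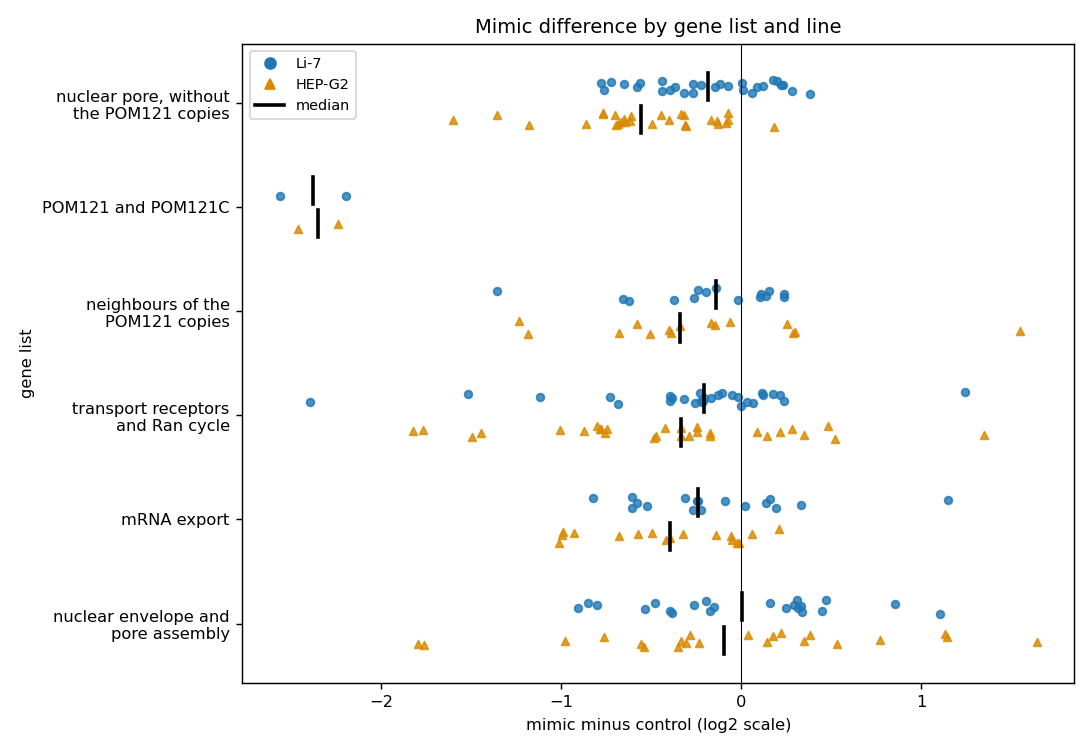
Log2 difference, mimic minus control, of each tested gene in Li-7 (circles) and HEP-G2 (triangles) for the pore genes, the neighbours of the POM121 copies and 3 lists of transport and envelope genes, with black bars at the medians and vertical scatter added for legibility. The POM121 copies lie between -2.56 and -2.20 in every case, and the other pore genes lie between -1.60 and 0.38.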

How the data were processed

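The authors deposited 1 table of summarised log2-like values per probe set, with 1 column per array. Per the submitters' processing notes, Affymetrix Expression Console and Transcriptome Analysis Console were used; background correction, normalization, log base and genome build are unstated in the sources used here. Probe sets were named through the platform annotation, with symbols updated by Entrez identifier (17709 of 17709 matched to RefSeq). The brightest probe set stood for a gene, and genes whose mean reached the 30th percentile of named genes (4.90) were tested. Deposited values were fitted without further normalization by limma 3.58.1 in R 4.3.3 (cell line and treatment, lmFit and eBayes), adjusted by Benjamini-Hochberg over 12381 genes at 0.05. Differences within a line are between single arrays, counted at 2-fold, with no test. Groups came from the sample titles. The fit was also run on simulated arrays drawn from its own model, with the same effect in both lines. That run cannot test the model's assumptions on these data. Promoter windows were aligned with Biopython 1.88. Named genes were all members, and from each other list those past the threshold and the 4 furthest from 0; the copied neighbours STAG3L, NSUN5P and TRIM73 were named after their values were seen. The members and lists were chosen with earlier results of these data known. Alternatives were other normalizations, filters, probe-set rules, statistics, models and a 1.5-fold limit; a filter on negative controls was added after seeing the data. Precision is limited by the number of arrays.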

Additional observations from a re-analysis of the deposited data

Results flagged for a closer look

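In 10 of the 30 pore genes the single Li-7 mimic array lay above its control and the single HEP-G2 mimic array below its own, which drew attention because the same contrast pointed opposite ways. Whether the lines differed was not tested. Opposite signs are common here, with 34.9% of all genes tested showing them, against 33.3% of the members. The log2 differences, Li-7 first and HEP-G2 second, were 0.28 and -1.18 for NUP35, 0.22 and -0.86 for NUP160, 0.20 and -0.70 for NUP54, and 0.0121 and -0.68 for NUP153. They were 0.38 and -0.13 for NUP88, 0.0892 and -0.32 for NUP50, 0.18 and -0.17 for NUP43, and 0.007 and -0.31 for NUP42. They were 0.23 and -0.0705 for NUP58 and 0.12 and -0.0842 for RANBP2.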

How the results depend on the processing

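The POM121 and POM121C calls held under 8 of 10 alternatives each, with mean log2 changes from -2.51 to -2.43 and from -2.22 to -2.13. Only the other normalizations could move these mean changes. The filters, statistics and models leave them as they are, and the probe-set rule cannot act on genes with 1 probe set. They were lost with an ordinary t statistic (-2.51 and -2.22, limma's coefficients, adjusted p = 0.583 and 0.560) and with treatment alone in the model (-2.51 and -2.22, adjusted p = 1 for each), where the count of members that fell was 0. With genes kept only if above the negative controls on every array, 4 of 27 members fell. They were the copies, NDC1 (-0.86, limma's adjusted p = 0.0405) and NUP188 (-0.71, limma's adjusted p = 0.0486). Of the 5552 genes kept there, 447 passed as lower and 334 as higher. Over all genes the calls numbered 52 as deposited (80.8% lower), 465 after quantile normalization (58.7% lower), 23 after cyclic loess, 366 with a filter at the median gene (65.3% lower), 411 with an intensity trend (61.6% lower), 0 with treatment alone and 1 with an ordinary t statistic. Members at least 1.5-fold lower numbered 6 in Li-7 cells and 16 in HEP-G2 cells, against 12.3% and 16.2% of all genes. For the line difference, the ordinary t statistic passed 0 members in either direction. No member's mean change turned its sign under quantile normalization, median centring or cyclic loess. The term for cell line already sets each mimic array against the control of its own line. No further paired analysis was possible because each group has 1 array and the labels give no replicate numbers. Dim signal limits NUP107, GLE1 and NUP62CL.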

Other observations

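Promoter windows, from 250 bases before to 50 after the annotated start, were searched for 2 kinds of motif on both strands, using the first RefSeq window of each gene (GRCh38.p14), and 28 of the 30 pore genes had one. The E2F type core, TTGGCGC or TTCGCGC, was found in 6 of 28 windows (21.4%), against 8.15% of the 10168 tested genes with a window. The 6 were POM121, NUP188, NUP155, NUP54, RAE1 and NUP50. In POM121 these letters overlap the stretch that POM121C lacks, and POM121C held neither. The CCAAT motif was found in 11 of 28 windows (39.3%), against 37.0% of tested genes. A match is a description of these letters and not a binding site.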
